A study of Mus musculus with 12 samples.

Results

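The 10 genes described here, Mmrn1, Vwf, Pf4, Selp, Gp1bb, Gp9, Clec1b, Treml1, Cavin2 and Rap1b, encode proteins of megakaryocytes and platelets. They were chosen by name from 55487 genes measured in mouse bone marrow LSK cells, and all 10 were found and passed the filter on low counts, which left 16649 genes for testing. LSK stands for the sort: no lineage markers, with Sca1 and c-Kit on the surface, a marrow fraction in which stem cells and early progenitors are found. The cells came from mice of 3 genotypes, with 4 libraries each. The genotypes were Yy1-/- Smc3+/-, Yy1-/- and the wild type Yy1+/+. Yy1 is the gene of the DNA-binding factor YY1, and SMC3 is part of the ring of cohesin, which holds chromatin loops and sister chromatids. The labels give no Cre line, promoter, treatment, age or sex, and do not say whether a library came from 1 mouse or from several.

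Megakaryocytes are large marrow cells that shed platelets. Platelets carry alpha granules filled with adhesive proteins and chemokines. On their surface they carry the GPIb-IX-V complex, which binds von Willebrand factor, and the receptor CLEC-2, which signals through Syk, while the small GTPase RAP1B relays many signals to the integrin that binds fibrinogen. In mouse marrow some of these genes are also transcribed in stem cells: a Vwf-positive subset of stem cells is known for its platelet bias. Several of the 10 genes are not restricted to this lineage, since endothelial cells make von Willebrand factor and P-selectin, macrophages can transcribe Pf4 and some myeloid cells can carry CLEC-2.

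Libraries held between 38671354 and 69086104 expected counts and between 17214 and 20005 genes with at least 1 count. Yy1 mRNA stood at 0.772 to 4.45 CPM (counts relative to library size, scaled with TMM factors) in libraries labelled Yy1-/- Smc3+/- and at 0.407 to 12.2 CPM in Yy1-/-, against 33.9 to 41.3 CPM in Yy1+/+. All 8 mutant libraries held some Yy1 reads, with the highest levels in Yy1-/- replicates 3 and 4 and in replicate 3 of the libraries labelled Yy1-/- Smc3+/-. Smc3 mRNA was no lower where the label says Smc3+/-, with 254 to 344 CPM in libraries labelled Yy1-/- Smc3+/- and 200 to 306 CPM in Yy1-/-, against 160 to 214 CPM in Yy1+/+. At an edgeR adjusted p under 0.05 Smc3 was called higher in both mutant genotypes than in Yy1+/+. The genotype Yy1-/- Smc3+/- is therefore named as labelled throughout, and gene counts cannot show whether an altered allele still makes a counted transcript. Of the sort markers, Kit was at 180 to 373 CPM in libraries labelled Yy1-/- Smc3+/- and 100 to 242 CPM in Yy1-/-, against 422 to 981 CPM in Yy1+/+, and Ly6a (Sca1) overlapped between all genotypes. Yy1-/- replicate 1 stood apart from all other libraries on the second principal component.

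The genes lie on 6 chromosomes, 4 of them on chromosome 6 (GRCm38, GENCODE M21). Mmrn1 (ENSMUSG00000054641.10) spans chr6:60924976-60989378, Gp9 (ENSMUSG00000030054.4) chr6:87778072-87779768, Vwf (ENSMUSG00000001930.17) chr6:125546774-125686679 and Clec1b (ENSMUSG00000030159.15) chr6:129397297-129409335, all on the plus strand. Cavin2 (ENSMUSG00000045954.7) spans chr1:51289126-51302960, Selp (ENSMUSG00000026580.16) chr1:164115264-164150026, Pf4 (ENSMUSG00000029373.7) chr5:90772435-90773383 and Treml1 (ENSMUSG00000023993.7) chr17:48359916-48367176, also on the plus strand. Rap1b (ENSMUSG00000052681.8) spans chr10:117813871-117846035 and Gp1bb (ENSMUSG00000050761.4) chr16:18620317-18622403, on the minus strand. Counts were made per gene over annotated transcripts, so the values below belong to whole genes and not to single exons.

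Some members share ground with other genes. Gp1bb overlaps Sept5 and Gm49601 on its own strand, and its expected counts were not whole numbers in 6 libraries, as happens when RSEM divides reads between genes. Sept5 itself averaged 0.476 CPM in libraries labelled Yy1-/- Smc3+/- and 1.66 CPM in Yy1-/-, against 1.49 CPM in Yy1+/+, so the split of reads is uncertain at these low levels. The Yy1-/- mean rests on replicate 2, with 5.26 CPM, where the other Yy1-/- libraries held 0.157 to 0.621 CPM. Gp1bb was the lowest of its Yy1-/- values, 0.638 CPM, in that same replicate. Selp overlaps 2 antisense-strand genes, Gm16587 and Gm16548, and its counts were not whole in any of the 12 libraries. Since the library kit does not mark strand, reads of such pairs cannot be told apart, though neither antisense gene averaged more than 0.482 CPM in a genotype. Cavin2 lies inside the antisense gene 9330175M20Rik, which was at 0 in every library. The end of Clec1b overlaps the start of Clec9a, a dendritic cell receptor gene on the same strand.

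The sequence just before the start site is shown for 4 of the genes, because they cover the range of outcomes below: Treml1 and Cavin2, which fell in both mutant genotypes, and Pf4 and Clec1b, which were high in some mutant libraries. Of the 10 genes, 9 matched the RefSeq promoter table (GRCm38.p6) by symbol. The 250 bases before each start were searched on both strands for GATA motifs (AGATAA or AGATAG and TGATAA or TGATAG), ETS motifs (AGGAAG or CGGAAG) and a YY1 motif (AANATGGC). Capitals mark every match, and no 2 kinds of motif overlapped in these windows. The windows are chr17:48359666-48359915 for Treml1, chr1:51288876-51289125 for Cavin2, chr5:90772185-90772434 for Pf4 and chr6:129397047-129397296 for Clec1b, all on the plus strand, written 5′ to 3′.
Treml1: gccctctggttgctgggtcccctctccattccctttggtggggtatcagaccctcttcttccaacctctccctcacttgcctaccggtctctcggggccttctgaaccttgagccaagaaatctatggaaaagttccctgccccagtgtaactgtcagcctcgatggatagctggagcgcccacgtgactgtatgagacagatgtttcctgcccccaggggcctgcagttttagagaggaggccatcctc
Cavin2: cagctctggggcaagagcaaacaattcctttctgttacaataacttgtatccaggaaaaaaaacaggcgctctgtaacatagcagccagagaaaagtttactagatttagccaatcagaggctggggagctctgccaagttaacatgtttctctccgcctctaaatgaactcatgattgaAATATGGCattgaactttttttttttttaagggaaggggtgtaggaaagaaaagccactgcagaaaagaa
Pf4: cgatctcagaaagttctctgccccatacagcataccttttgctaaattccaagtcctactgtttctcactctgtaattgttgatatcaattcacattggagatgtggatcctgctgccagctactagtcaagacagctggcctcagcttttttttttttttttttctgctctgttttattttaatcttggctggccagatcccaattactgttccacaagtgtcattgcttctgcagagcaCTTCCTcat
Clec1b: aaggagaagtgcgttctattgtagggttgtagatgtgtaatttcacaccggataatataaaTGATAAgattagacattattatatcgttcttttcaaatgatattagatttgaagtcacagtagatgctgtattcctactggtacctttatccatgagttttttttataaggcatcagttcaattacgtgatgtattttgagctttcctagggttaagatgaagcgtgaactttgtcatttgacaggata
Treml1 held none of the 3 motifs, Cavin2 held 1 YY1 match beginning 70 bases before the start, Pf4 held 1 ETS match beginning 9 bases before it, and Clec1b held 1 GATA match beginning 189 bases before it. Over the 9 windows, GATA letters were found in 3 genes (Mmrn1, Gp1bb and Clec1b), ETS letters in 5 (Pf4, Gp1bb, Gp9, Selp and Rap1b) and YY1 letters in 1. Of all 32851 promoters of the same length, 26.5% held a GATA match, 39.2% an ETS match and 3.91% a YY1 match. The RefSeq start of Mmrn1 lies inside the GENCODE gene, and the window of Gp1bb lies wholly in annotated exons of an overlapping gene. A match describes letters only, and says nothing of binding in these cells.

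Levels can be compared between genes only per length, in TPM, which scales reads by transcript length and library. In Yy1+/+ the order of mean TPM was Rap1b with 169 ± 39.0 (SD, n = 4 here and below), Pf4 with 82.4 ± 26.1, Mmrn1 with 52.2 ± 4.06, Gp9 with 46.3 ± 9.99 and Selp with 22.4 ± 6.61. Below them stood Gp1bb with 6.13 ± 2.83, Cavin2 with 5.33 ± 1.23, Treml1 with 4.47 ± 0.915, Vwf with 4.42 ± 0.831 and Clec1b with 0.268 ± 0.131 TPM. The libraries of Rap1b lay above those of Pf4, those of Gp9 above those of Selp, those of Selp above those of Gp1bb and those of Vwf above those of Clec1b. All other neighbours in this order overlapped.

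Mmrn1 lost its place in both mutant genotypes. It was the third of the 10 in Yy1+/+, but the seventh in libraries labelled Yy1-/- Smc3+/-, with 0.795 ± 0.737 TPM, and the ninth in Yy1-/-, with 0.510 ± 0.299 TPM. Rap1b, Pf4, Gp9 and Selp were the 4 highest in both mutant genotypes. In libraries labelled Yy1-/- Smc3+/- they averaged 154, 69.2, 29.7 and 10.4 TPM, and in Yy1-/- 191, 160, 22.4 and 20.3 TPM, where Pf4 and its neighbours overlapped. Selp lay apart above Gp1bb in both mutant genotypes and Gp9 apart above Selp in libraries labelled Yy1-/- Smc3+/-, and all other neighbours overlapped. The other 6 genes averaged no more than 1.24 TPM in libraries labelled Yy1-/- Smc3+/- and no more than 1.75 TPM in Yy1-/-.

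The comparison of each mutant genotype with Yy1+/+ asks which of these genes differ in LSK cells that carry the label. In libraries labelled Yy1-/- Smc3+/-, Mmrn1, Vwf, Selp, Gp1bb, Treml1 and Cavin2 fell, so 6 of 10 genes, and 0 rose in the edgeR test or at an unadjusted p under 0.05. Over all tested genes 16.7% fell and 13.1% rose in that comparison, 29.9% in either direction. In Yy1-/-, Mmrn1, Vwf, Gp1bb, Treml1 and Cavin2 fell and Clec1b rose, against 18.8% of all genes that fell and 16.3% that rose, 35.2% in either direction. The median log2 fold change of the 10 was -1.504 in libraries labelled Yy1-/- Smc3+/- and -1.10 in Yy1-/-, each against Yy1+/+, where the medians of all tested genes were 0.02 and 0.0058. In each comparison 5 of the 10 genes, Mmrn1, Vwf, Gp1bb, Treml1 and Cavin2, had mutant libraries that all lay below all Yy1+/+ libraries, and 0 had them all above. Over all tested genes, libraries did not overlap for 32.2% of genes in those labelled Yy1-/- Smc3+/-, with 17.6% of all genes lower, and for 30.9% in Yy1-/-, with 17.5% lower. Both comparisons use the same 4 Yy1+/+ libraries, so they are not independent of each other. In bulk libraries such as these, fewer cells of a type and less RNA per cell cannot be told apart.

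**Figure D1:**
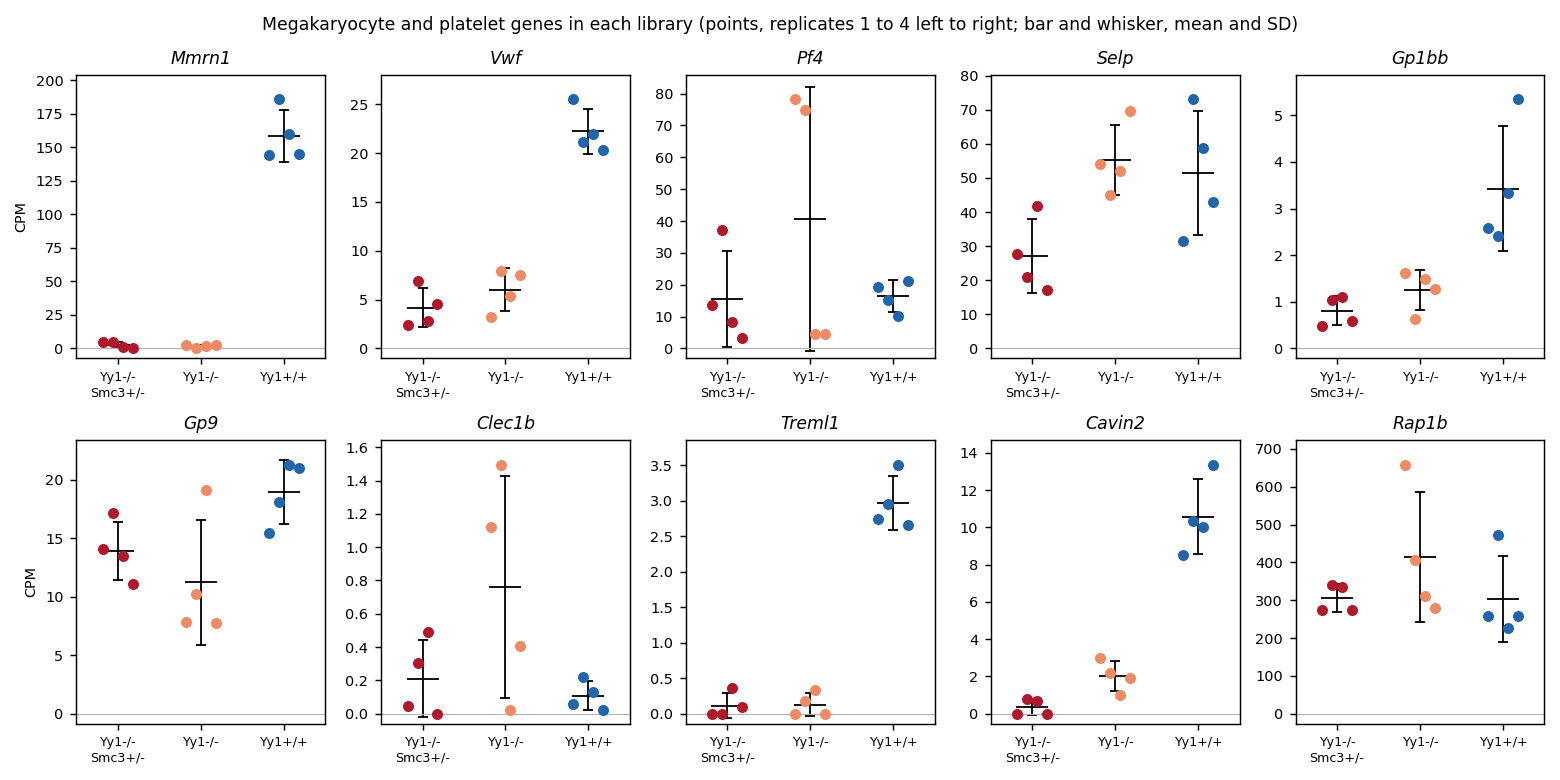
Level of each of the 10 genes in CPM, with 1 point for each of 4 libraries per genotype and the mean and SD over them. Mmrn1, Vwf, Gp1bb, Treml1 and Cavin2 lie below every Yy1+/+ library in all libraries of both mutant genotypes, whereas Pf4 and Clec1b reach their highest values in Yy1-/- replicates 1 and 2.

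Mmrn1 had the largest decrease of the 10 genes in both comparisons with Yy1+/+. It encodes multimerin 1, a large protein of platelet alpha granules that carries coagulation factor V. It was measured at 4.98, 4.56, 1.11 and 0.0745 CPM in libraries labelled Yy1-/- Smc3+/- and at 2.52, 0.478, 1.68 and 2.75 CPM in Yy1-/-, against 144, 186, 160 and 145 CPM in Yy1+/+. All 8 mutant libraries lay far below all 4 Yy1+/+ libraries, and the lowest, replicate 4 of those labelled Yy1-/- Smc3+/-, held 3 counts. Mean CPM was 1.69% of the Yy1+/+ mean in libraries labelled Yy1-/- Smc3+/- and 1.17% in Yy1-/-. The log2 fold change was -5.86 ± 0.58 in libraries labelled Yy1-/- Smc3+/- (SE, edgeR adjusted p = 2.54e-05) and -6.45 ± 0.61 in Yy1-/- (edgeR adjusted p = 1.69e-05).

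Vwf encodes von Willebrand factor, the adhesive multimer that tethers platelets through GPIb. It stood at 2.43, 6.85, 2.85 and 4.59 CPM in libraries labelled Yy1-/- Smc3+/- and at 3.23, 7.97, 5.39 and 7.47 CPM in Yy1-/-, against 25.5, 21.2, 21.9 and 20.3 CPM in Yy1+/+. No mutant library reached the lowest wild-type one. Relative to Yy1+/+ the mean was 18.8% in libraries labelled Yy1-/- Smc3+/- and 27.1% in Yy1-/-. Its log2 fold change was -2.41 ± 0.33 in libraries labelled Yy1-/- Smc3+/- (edgeR adjusted p = 0.000212) and -1.88 ± 0.32 in Yy1-/- (edgeR adjusted p = 0.000765). Genes of endothelial cells, the other main source of von Willebrand factor, moved with it in part. The summed level of 10 endothelial markers was 9.15 to 36.0 TPM in libraries labelled Yy1-/- Smc3+/- and 11.2 to 21.7 TPM in Yy1-/-, against 74.7 to 101 TPM in Yy1+/+. Of the 9 of them that were tested, 3 fell and 1 rose in libraries labelled Yy1-/- Smc3+/-, and 4 fell and 2 rose in Yy1-/-. Among all tested genes 16.7% fell and 13.1% rose in the first comparison, and 18.8% fell and 16.3% rose in the second.

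Tie1, Emcn and Robo4, the endothelial markers with the most transcript, are also transcribed in stem cells. Tie1 averaged 29.0 CPM in libraries labelled Yy1-/- Smc3+/- and 23.4 CPM in Yy1-/-, against 126 CPM in Yy1+/+. Emcn and Robo4 fell as well. Plvap spanned 0.571 to 15.5 CPM in libraries labelled Yy1-/- Smc3+/- and 1.59 to 10.5 CPM in Yy1-/-, against 4.06 to 6.16 CPM in Yy1+/+. Kdr spanned 3.88 to 5.27 CPM in libraries labelled Yy1-/- Smc3+/- and 0.359 to 8.80 CPM in Yy1-/-, against 1.16 to 1.90 CPM in Yy1+/+. Cdh5, another marker of the list, stayed at or below 0.129 CPM in Yy1+/+ and at or below 1.22 CPM in the mutant libraries. Cdh5 was called higher in Yy1-/- (edgeR adjusted p = 0.00494). It passed the filter through mutant libraries, so its test favoured a rise. Between 0 and 3 of the 10 markers were at 0 in a library, and these were Cdh5, Cldn5, Stab2 or Lyve1. The part of these markers in the result for Vwf was not tested.

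Selp encodes P-selectin, an alpha granule membrane protein that moves to the surface of activated platelets. Its level was 27.8, 21.1, 41.9 and 17.2 CPM in libraries labelled Yy1-/- Smc3+/- and 54.1, 45.0, 52.2 and 69.5 CPM in Yy1-/-, against 31.4, 73.1, 58.8 and 42.9 CPM in Yy1+/+. Replicate 3 of the libraries labelled Yy1-/- Smc3+/- lay inside the Yy1+/+ range and the other 3 lay below it, whereas Yy1-/- overlapped Yy1+/+ throughout. Selp fell in libraries labelled Yy1-/- Smc3+/- (log2 fold change -0.93 ± 0.29, edgeR adjusted p = 0.0295), and this call was lost without replicate 1, 2 or 4 of that genotype or without Yy1+/+ replicate 2 or 3, with adjusted p between 0.0583 and 0.087. Selp was not called in Yy1-/- against Yy1+/+ (log2 fold change 0.10, 95% interval -0.53 to 0.72, edgeR adjusted p = 0.82).

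Pf4 encodes platelet factor 4, an alpha granule chemokine. Its values were 13.7, 37.3, 8.17 and 3.25 CPM in libraries labelled Yy1-/- Smc3+/- and 78.2, 74.9, 4.62 and 4.66 CPM in Yy1-/-, against 19.3, 15.3, 10.1 and 21.2 CPM in Yy1+/+. Yy1-/- replicates 1 and 2 lay above every Yy1+/+ library, and its replicates 3 and 4 lay below every one. The log2 fold change was -0.07 in libraries labelled Yy1-/- Smc3+/- (95% interval -1.92 to 1.78, edgeR adjusted p = 0.96) and 1.302 in Yy1-/- (-0.53 to 3.13, edgeR adjusted p = 0.253). When the 3 mutant libraries with the most Yy1 reads were left out, the Yy1-/- libraries that remained were replicates 1 and 2, and Pf4 was then called higher in Yy1-/- at 2.18 (edgeR adjusted p = 0.0211). Without replicates 1 and 2 its log2 fold change was -1.86 (edgeR adjusted p = 0.108). In both cases the choice of libraries fixes the direction.

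Gp1bb and Gp9 encode subunits of the GPIb-IX-V complex. Gp1bb had 0.485, 1.03, 1.11 and 0.596 CPM in libraries labelled Yy1-/- Smc3+/- and 1.63, 0.638, 1.48 and 1.27 CPM in Yy1-/-, against 2.59, 2.42, 3.34 and 5.34 CPM in Yy1+/+. Every mutant library was below every Yy1+/+ library. Its log2 fold change was -2.07 ± 0.43 in libraries labelled Yy1-/- Smc3+/- (edgeR adjusted p = 0.00323) and -1.45 ± 0.40 in Yy1-/- (edgeR adjusted p = 0.0126). The Yy1-/- call was lost without Yy1-/- replicates 1 and 2 (-1.32, edgeR adjusted p = 0.0688).

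Gp9 stayed higher than Gp1bb in TPM in all genotypes. It had 14.1, 17.2, 13.5 and 11.1 CPM in libraries labelled Yy1-/- Smc3+/- and 7.88, 10.3, 19.1 and 7.76 CPM in Yy1-/-, against 15.5, 18.1, 21.3 and 21.0 CPM in Yy1+/+. Both mutant genotypes overlapped Yy1+/+ by 1 library each, replicate 2 of those labelled Yy1-/- Smc3+/- and replicate 3 of Yy1-/-. The log2 fold change was -0.44 in libraries labelled Yy1-/- Smc3+/- (95% interval -1.03 to 0.15, edgeR adjusted p = 0.25) and -0.75 in Yy1-/- (-1.35 to -0.15, edgeR adjusted p = 0.0516). Gp9 passed the threshold in Yy1-/- without replicate 3 (-1.16, edgeR adjusted p = 0.00264), with DESeq2 (-0.76, adjusted p = 0.0333) and with 4 other alternatives, so its call rests on that library and on the method. Of the other subunit genes, Gp5 had a log2 fold change of -1.59 in libraries labelled Yy1-/- Smc3+/- (edgeR adjusted p = 0.00424) and -1.67 in Yy1-/- (edgeR adjusted p = 0.00261). Gp1ba was not called, with -0.994 in libraries labelled Yy1-/- Smc3+/- (edgeR adjusted p = 0.0703) and -0.998 in Yy1-/- (edgeR adjusted p = 0.061).

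Clec1b encodes CLEC-2, the platelet receptor for podoplanin, and Treml1 encodes TLT-1, an alpha granule receptor exposed on activated platelets. Clec1b was the lowest of the 10 genes in Yy1+/+. It had 2, 13, 19 and 0 counts in libraries labelled Yy1-/- Smc3+/- and 44, 75, 1 and 17 counts in Yy1-/-, against 3, 14, 6 and 1 counts in Yy1+/+. In CPM these were 0.0441, 0.304, 0.491 and 0 in libraries labelled Yy1-/- Smc3+/- and 1.12, 1.495, 0.0225 and 0.406 in Yy1-/-, against 0.0564, 0.221, 0.129 and 0.0225 in Yy1+/+. The count of 0 allows up to 0.0745 CPM, counting error only. Yy1-/- replicates 1, 2 and 4 lay above every Yy1+/+ library and replicate 3 was as low as the lowest of them.

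Clec1b rose in Yy1-/- (log2 fold change 2.72 ± 0.86, edgeR adjusted p = 0.0188), the only member with a rise. In libraries labelled Yy1-/- Smc3+/- its log2 fold change was 0.81 (95% interval -1.63 to 3.25, edgeR adjusted p = 0.635). No Yy1+/+ library held more than 0.221 CPM, so Clec1b passed the filter through mutant libraries. It was not tested under a stricter filter, or against Yy1+/+ with only 2 genotypes in the fit, because it was filtered out there. The call in Yy1-/- was lost with DESeq2 (2.80, adjusted p = 0.0886), with log2 TPM in limma (0.77, adjusted p = 0.093) and with the older quasi-likelihood form of edgeR (2.78, adjusted p = 0.123). It was also lost without Yy1-/- replicate 1 or 2 or Yy1+/+ replicate 1 or 4, with log2 fold changes of 2.08 to 2.49 and adjusted p between 0.0545 and 0.103. Without both Yy1-/- replicates 1 and 2 the log2 fold change was 0.81 (edgeR adjusted p = 0.668), and without Yy1+/+ replicate 2 it was 3.43 and kept its call.

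Pf4 and Clec1b were high in the Yy1-/- libraries that were richest in monocyte and macrophage transcripts. The summed level of 8 monocyte and dendritic markers, none of which was at 0 in any library, was 581 to 1365 TPM in libraries labelled Yy1-/- Smc3+/- and 464 to 5321 TPM in Yy1-/-, against 609 to 1319 TPM in Yy1+/+. In Yy1-/- it was 5321 and 4118 TPM in replicates 1 and 2 and 464 and 690 TPM in replicates 3 and 4. Of the 8 markers, 5 rose and 0 fell in libraries labelled Yy1-/- Smc3+/- against Yy1+/+, and 7 rose and 0 fell in Yy1-/-. Among all tested genes 13.1% rose in the first comparison and 16.3% in the second. Lyz2, a lysozyme of macrophages and granulocytes, had 4248 and 2806 CPM in Yy1-/- replicates 1 and 2 and 177 and 348 CPM in replicates 3 and 4. Cd68 and Ms4a6c, also genes of macrophages and monocytes, were highest in Yy1-/- replicates 1 and 2 as well. Neutrophil markers were mixed, with sums of 8633 and 19550 TPM in replicates 1 and 2 and 4557 and 7823 TPM in replicates 3 and 4. S100a8 and S100a9 were higher in replicates 1 and 2 than in replicates 3 and 4. Elane went the other way, with 395 and 242.5 CPM in replicates 1 and 2 and 478 and 766 CPM in replicates 3 and 4. In libraries labelled Yy1-/- Smc3+/- Clec1b was highest in replicate 3, with a monocyte and dendritic sum of 755.5 TPM, and not in replicate 2, with 1365 TPM. The part of these markers in the results for Pf4 and Clec1b was not tested.

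**Figure D2:**
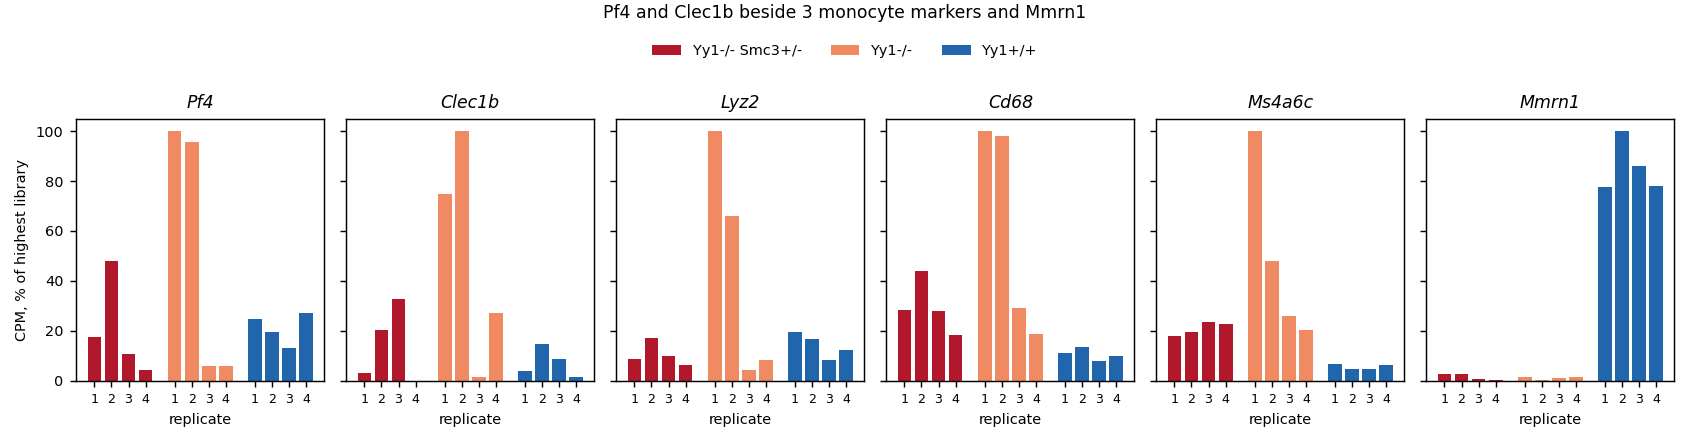
CPM of Pf4 and Clec1b, of the monocyte markers Lyz2, Cd68 and Ms4a6c and of Mmrn1 in each of the 12 libraries, as a percentage of the highest library for that gene. Pf4, Clec1b and the 3 markers have their highest bars in Yy1-/- replicates 1 and 2, while Mmrn1 is high only in the 4 Yy1+/+ libraries.

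Treml1 was nearly lost from both mutant genotypes. It was at 0, 0, 0.362 and 0.0993 CPM in libraries labelled Yy1-/- Smc3+/- and at 0, 0.179, 0.337 and 0 CPM in Yy1-/-, against 2.74, 2.95, 3.51 and 2.66 CPM in Yy1+/+. The 4 libraries at 0 allow between 0.0662 and 0.0763 CPM each, and no mutant library came near the Yy1+/+ range. Its log2 fold change was -4.74 ± 0.70 in libraries labelled Yy1-/- Smc3+/- (edgeR adjusted p = 5.63e-05) and -4.42 ± 0.66 in Yy1-/- (edgeR adjusted p = 5.38e-05). The size rests on few counts: without replicate 3 of the genotype it was -6.45 in libraries labelled Yy1-/- Smc3+/- and -5.42 in Yy1-/-. Treml1 passed the filter through the Yy1+/+ libraries, where it is high, so its test favoured a fall.

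Cavin2 encodes a caveolae coat protein, also known as serum deprivation response protein, that is abundant in platelets. Its level was 0, 0.772, 0.673 and 0 CPM in libraries labelled Yy1-/- Smc3+/- and 2.97, 2.19, 1.01 and 1.91 CPM in Yy1-/-, against 8.53, 10.4, 10.04 and 13.4 CPM in Yy1+/+. The genotypes formed 3 ranges that did not overlap, lowest in the libraries labelled Yy1-/- Smc3+/-. Cavin2 fell in those libraries (log2 fold change -4.89 ± 0.57, edgeR adjusted p = 5.15e-05) and in Yy1-/- (-2.39 ± 0.42, edgeR adjusted p = 0.000876), each against Yy1+/+. Without replicate 2 the first of these was -5.67, and the Yy1-/- call was lost with the older quasi-likelihood form of edgeR (adjusted p = 0.0781). On the log2(TPM + 1) scale, which understates changes of low genes, the changes in libraries labelled Yy1-/- Smc3+/- were -4.99 for Mmrn1, -2.26 for Treml1, -2.44 for Cavin2 and -1.59 for Vwf. In Yy1-/- they were -5.16 for Mmrn1, -2.24 for Treml1 and -1.79 for Cavin2 on that scale.

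Rap1b was the most abundant of the 10 transcripts per length. It had 275, 341, 334 and 274 CPM in libraries labelled Yy1-/- Smc3+/- and 658, 405, 311 and 279 CPM in Yy1-/-, against 259, 473, 227 and 258 CPM in Yy1+/+. All 3 genotypes overlapped, with Yy1-/- replicate 1 the highest library. The log2 fold change was 0.01 in libraries labelled Yy1-/- Smc3+/- (95% interval -0.58 to 0.60, edgeR adjusted p = 0.986) and 0.44 in Yy1-/- (-0.15 to 1.03, edgeR adjusted p = 0.229). Without Yy1+/+ replicate 2, the highest of its genotype, Rap1b was called higher in Yy1-/- (0.73, edgeR adjusted p = 0.0368).

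**Figure D3:**
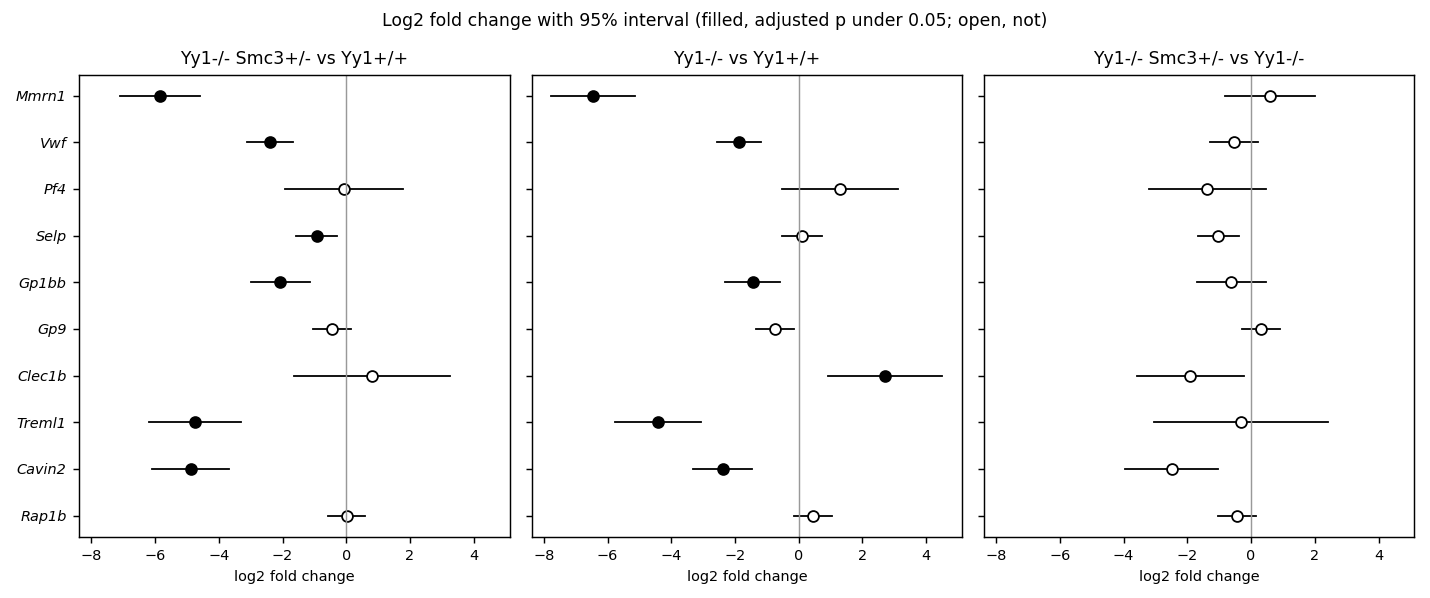
Log2 fold change of each gene with its 95% interval in 3 comparisons, with filled points for an adjusted p under 0.05. Mmrn1, Treml1 and Cavin2 lie furthest to the left against Yy1+/+, and no point is filled in the comparison of the libraries labelled Yy1-/- Smc3+/- with Yy1-/-.

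The libraries labelled Yy1-/- Smc3+/- were compared with Yy1-/- to ask what the Smc3+/- label adds. None of the 10 genes was called by edgeR or by DESeq2, where 0.036% of all tested genes were called by edgeR, and 3 had an unadjusted p under 0.05, all lower. At that unadjusted threshold stood 6.46% of all tested genes, and 3.77% were lower. The 3 were Cavin2 with a log2 fold change of -2.49 (95% interval -3.95 to -1.04, edgeR adjusted p = 0.648), Selp with -1.03 (-1.67 to -0.39, edgeR adjusted p = 0.718) and Clec1b with -1.91 (-3.59 to -0.23, edgeR adjusted p = 0.756). For Cavin2 and Selp no library labelled Yy1-/- Smc3+/- reached the lowest Yy1-/- library, whereas 2.01% of all genes had libraries of the 2 genotypes that did not overlap, and 0.883% were lower in that way. The intervals of the other 7 genes included 0, from -0.82 to 2.01 for Mmrn1 to -3.06 to 2.41 for Treml1. When the 3 mutant libraries with the most Yy1 reads were left out, Clec1b was called lower (-3.48, edgeR adjusted p = 0.0386). That left only 2 Yy1-/- libraries, the 2 with the most Clec1b, and dropped the highest one labelled Yy1-/- Smc3+/-, so the choice of libraries fixes the direction.

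The wider set of megakaryocyte genes was described from 6 lists that hold none of the 10 members. Together they had 116 genes, of which 112 were tested. Against Yy1+/+, 39 fell and 5 rose in libraries labelled Yy1-/- Smc3+/-, where their median change was -0.17 on the log2 scale. In Yy1-/- 35 fell and 15 rose, and the median was -0.23. Over all tested genes 16.7% fell and 13.1% rose in libraries labelled Yy1-/- Smc3+/-, and 18.8% fell and 16.3% rose in Yy1-/-. With log2 TPM in limma the Yy1-/- count was 48 that fell and 7 that rose, a scale on which the median of all genes was itself -0.177. None was called by edgeR or DESeq2 when the mutant genotypes were set against each other, and 10 of 112 had an unadjusted p under 0.05, where 6.46% of all tested genes did.

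Transcription factors of the lineage were the list with the largest share of falls. Of 17, 12 fell and 1 rose in libraries labelled Yy1-/- Smc3+/- and 13 fell and 1 rose in Yy1-/-, where 16.7% and 18.8% of all tested genes fell. The median log2 fold change of the 17 was -1.08 in libraries labelled Yy1-/- Smc3+/- and -1.13 in Yy1-/-. Gata2, a zinc finger factor of stem and megakaryocyte progenitor cells, averaged 87.1 ± 28.0 CPM in libraries labelled Yy1-/- Smc3+/- and 70.5 ± 14.8 CPM in Yy1-/-, against 309 ± 44.3 CPM in Yy1+/+. Nfe2, which drives late megakaryocyte genes and proplatelet formation, averaged 246 ± 34.8 CPM in libraries labelled Yy1-/- Smc3+/- and 241 ± 27.2 CPM in Yy1-/-, against 530 ± 58.5 CPM in Yy1+/+. Meis1 and Lmo2 fell too, by 1.48 and 1.15 on the log2 scale in libraries labelled Yy1-/- Smc3+/- and by 1.72 and 1.13 in Yy1-/- (edgeR adjusted p at most 4.35e-05 in these 4 tests). No library of either mutant genotype overlapped Yy1+/+ for Gata2, Nfe2, Meis1 or Lmo2, which were named for the smallest p in Yy1-/-. In libraries labelled Yy1-/- Smc3+/- 11 of the 17 lay lower without overlap, where 17.6% of all tested genes did. In Yy1-/- 14 of the 17 did, where 17.5% of all tested genes did.

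Of 24 tested receptors, 12 fell and 0 rose in libraries labelled Yy1-/- Smc3+/-, and 9 fell and 4 rose in Yy1-/-. Among all tested genes 16.7% fell and 13.1% rose in the first comparison, and 18.8% fell and 16.3% rose in the second. The share of receptors that rose in Yy1-/- was thus near that of all tested genes. P2rx1, the ATP-gated channel of platelets, Slamf1, a SLAM receptor of stem cells, and Esam, an adhesion molecule of stem cells, platelets and endothelium, fell in both mutant genotypes. Their log2 fold changes in libraries labelled Yy1-/- Smc3+/- were -3.05 for P2rx1, -2.18 for Slamf1 and -2.045 for Esam, and in Yy1-/- -2.59 for P2rx1, -2.27 for Slamf1 and -2.34 for Esam. Cd9, a tetraspanin, had 67.7 ± 8.43 CPM in libraries labelled Yy1-/- Smc3+/- and 85.5 ± 8.09 CPM in Yy1-/-, against 111 ± 18.7 CPM in Yy1+/+, and fell in libraries labelled Yy1-/- Smc3+/- (edgeR adjusted p = 0.00269), with adjusted p = 0.0547 in Yy1-/-.

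Of 23 tested genes of granule cargo and machinery, 6 fell and 2 rose in each mutant genotype, with medians of 0.021 in libraries labelled Yy1-/- Smc3+/- and -0.08 in Yy1-/-. In either direction this is near the 29.9% and 35.2% of all tested genes called in those comparisons. Falls alone were above the 16.7% and 18.8% of all tested genes that fell. Stxbp2, Unc13d and Rab27b, all of the machinery that docks and primes granules, fell by 1.06, 0.76 and 2.81 on the log2 scale in libraries labelled Yy1-/- Smc3+/- and by 0.95, 1.13 and 2.32 in Yy1-/-. Nbeal2, which platelets need to form alpha granules, fell by 0.84 in libraries labelled Yy1-/- Smc3+/- (edgeR adjusted p = 0.0417) and by 1.40 in Yy1-/- (edgeR adjusted p = 0.00267). Srgn, the proteoglycan core of granules, and Vamp8, a vesicle SNARE, were the most abundant and were not called, with log2 fold changes of 0.09 for Srgn and 0.18 for Vamp8 in libraries labelled Yy1-/- Smc3+/- and 0.29 for Srgn and 0.42 for Vamp8 in Yy1-/-.

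In the cytoskeleton list 3 of 15 genes fell and 1 rose in libraries labelled Yy1-/- Smc3+/-, and 2 fell and 3 rose in Yy1-/-. In either direction this is no more than the 29.9% and 35.2% of all tested genes called in those comparisons. Tubb1, the beta tubulin of platelets, was at 0 in 3 libraries of each mutant genotype and averaged 1.53 ± 0.627 CPM in Yy1+/+. Tubb1 too passed the filter through Yy1+/+, so its test favoured a fall. Zyx, a focal adhesion protein, fell by 0.79 in libraries labelled Yy1-/- Smc3+/- and by 0.89 in Yy1-/- on the log2 scale. Tpm4, a tropomyosin of platelets and other cells, rose by 2.37 in libraries labelled Yy1-/- Smc3+/- (edgeR adjusted p = 1.33e-05) and by 2.51 in Yy1-/- (edgeR adjusted p = 8.69e-06). Tmsb4x and Cdc42 rose in Yy1-/- and were not called in libraries labelled Yy1-/- Smc3+/-, and Tmsb4x had its highest values, 3504 and 1961 CPM, in Yy1-/- replicates 1 and 2.

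Of 16 genes of Rap1 and integrin activation, 2 fell and 1 rose in libraries labelled Yy1-/- Smc3+/-, and 2 fell and 3 rose in Yy1-/-. In either direction both are below the 29.9% and 35.2% of all tested genes called. Rises alone, in Yy1-/-, were near the 16.3% of all tested genes that rose. Rap1gap, which turns Rap1 off, averaged 0.373 ± 0.236 CPM in libraries labelled Yy1-/- Smc3+/- and 0.326 ± 0.237 CPM in Yy1-/-, against 4.41 ± 0.739 CPM in Yy1+/+. Rasa3, another GTPase-activating protein, fell by 0.84 in libraries labelled Yy1-/- Smc3+/- and by 0.91 in Yy1-/- on the log2 scale. Ralb, a related small GTPase, rose by 1.34 in libraries labelled Yy1-/- Smc3+/- and by 1.52 in Yy1-/-. Rap1gap2 rose in Yy1-/- (2.10 ± 0.62, edgeR adjusted p = 0.0185) with overlapping libraries. The exchange factor gene Rasgrp2 and the kindlin gene Fermt3, the most abundant of the list, were not called in either comparison.

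Downstream of CLEC-2 and the collagen receptor GPVI, 4 of 17 signalling genes fell and 0 rose in libraries labelled Yy1-/- Smc3+/-, and 3 fell and 2 rose in Yy1-/-. In either direction this is below the 29.9% and 35.2% of all tested genes called in those comparisons. Falls alone, in libraries labelled Yy1-/- Smc3+/-, were above the 16.7% of all tested genes that fell. Lat, the adaptor phosphorylated by Syk, averaged 23.0 ± 1.99 CPM in libraries labelled Yy1-/- Smc3+/- and 15.2 ± 4.00 CPM in Yy1-/-, against 46.6 ± 17.7 CPM in Yy1+/+. Fyn and Src fell in both mutant genotypes, by 0.71 and 1.98 on the log2 scale in libraries labelled Yy1-/- Smc3+/- and by 0.75 and 2.78 in Yy1-/-. Lyn rose in Yy1-/- by 1.20 (edgeR adjusted p = 0.00379) with its highest values, 374 and 246 CPM, in replicates 1 and 2. The phosphatase gene Ptpn6 rose there by 0.43, and Vav1 was not called. Gp6, the GPVI gene itself, had 0 counts in all libraries of the genotypes Yy1-/- Smc3+/- and Yy1+/+ and reached 0.458 CPM in 1 Yy1-/- library.

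**Figure D4:**
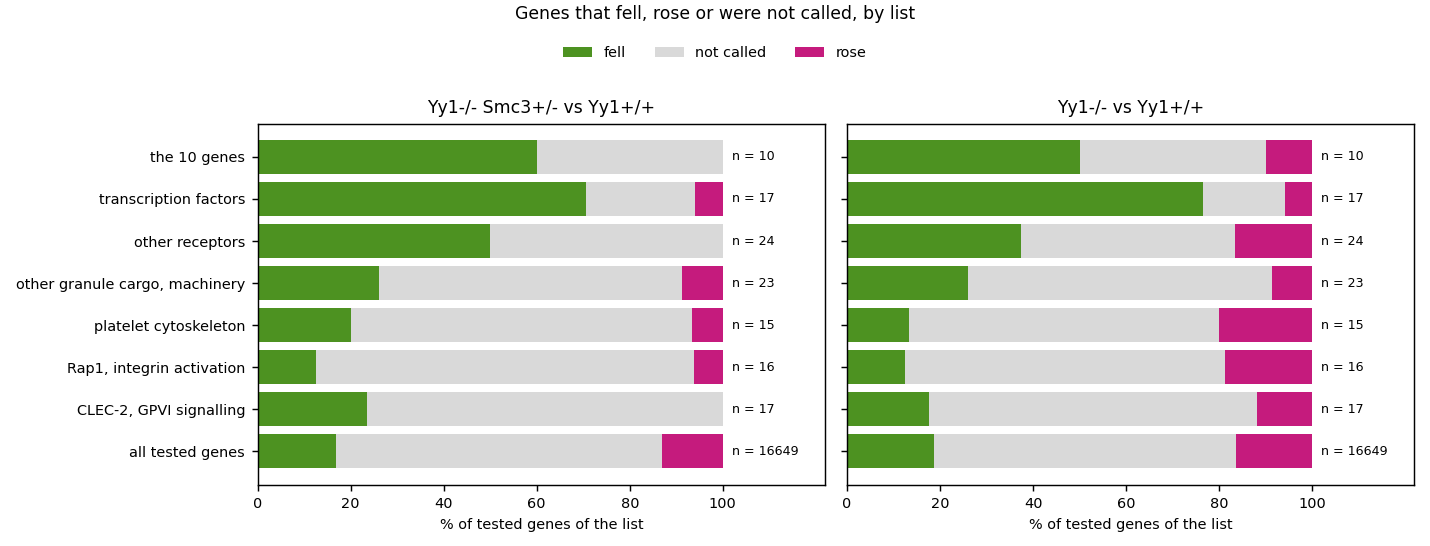
Share of the tested genes of each list that fell, rose or were not called in the libraries labelled Yy1-/- Smc3+/- and in Yy1-/-, each against Yy1+/+, with the number tested beside each bar. The transcription factors have the widest bar of falls, with 12 and 13 of 17, and the row of all tested genes shows 16.7% and 18.8%.

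The label of the 10 genes was checked against 8 markers of mature megakaryocytes and platelets. Their summed level was 9.39 to 19.9 TPM in libraries labelled Yy1-/- Smc3+/- and 10.4 to 23.1 TPM in Yy1-/-, against 37.1 to 55.0 TPM in Yy1+/+. Of the 8, 7 also stand in the wider lists. Between 1 and 3 of the 8 were at 0 in a library: Gp6 in 11 of 12 libraries, and Tubb1 or Trpc6 in some mutant libraries. Of the 7 tested, 3 fell and 0 rose in libraries labelled Yy1-/- Smc3+/-, and 4 fell and 1 rose (P2ry12, a platelet ADP receptor also found in macrophages) in Yy1-/-. Among all tested genes 16.7% fell and 13.1% rose in the first comparison, and 18.8% fell and 16.3% rose in the second. The 3 of the 8 markers with the most transcript were Gp5, Trpc6 and Itgb3. Trpc6, a cation channel gene, averaged 1.13 ± 0.504 CPM in libraries labelled Yy1-/- Smc3+/- and 0.406 ± 0.564 CPM in Yy1-/-, against 35.7 ± 3.93 CPM in Yy1+/+, whereas Itgb3, the beta chain of the fibrinogen receptor, was not called.

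Erythroid markers summed to 14.95 to 735 TPM in libraries labelled Yy1-/- Smc3+/- and 18.3 to 899 TPM in Yy1-/-, against 255 to 486 TPM in Yy1+/+, with 1 of 8 that fell and 0 that rose in each mutant genotype. Neutrophil markers summed to 3538 to 14340 TPM in libraries labelled Yy1-/- Smc3+/- and 4557 to 19550 TPM in Yy1-/-, against 1747 to 10170 TPM in Yy1+/+, and 1 of 8 rose in each. For these and the lists below, 16.7% of all tested genes fell and 13.1% rose in libraries labelled Yy1-/- Smc3+/-. In Yy1-/- 18.8% fell and 16.3% rose, so the erythroid and neutrophil counts are no more than those shares. For mast and basophil cells 1 of 6 markers fell and 2 rose in each. For T and NK cells 3 of 6 rose in each, though their summed level was 117 to 503 TPM in libraries labelled Yy1-/- Smc3+/- and 76.5 to 420 TPM in Yy1-/-, against 355 to 583 TPM in Yy1+/+. B lineage markers summed to 66.8 to 98.7 TPM in libraries labelled Yy1-/- Smc3+/- and 52.2 to 74.4 TPM in Yy1-/-, against 88.8 to 106 TPM in Yy1+/+, so every Yy1-/- library lay below every Yy1+/+ library. Of the 5 tested, 2 rose in libraries labelled Yy1-/- Smc3+/- and 0 were called by edgeR in Yy1-/-, where 1 had an unadjusted p under 0.05.

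The genes whose pattern over the 12 libraries was most like each member were found by the root mean square (RMS) difference of centred log2 CPM over all tested genes, as a description. Tcf15, Nrbp2 and Lmcd1 were nearest to Mmrn1, with RMS differences of 1.16 to 1.29. Tcf15, a transcription factor gene of quiescent stem cells in mouse, averaged 0.301 ± 0.346 CPM in libraries labelled Yy1-/- Smc3+/- and 0.455 ± 0.0679 CPM in Yy1-/-, against 13.9 ± 4.87 CPM in Yy1+/+. Zmym2, Zfp157 and Kremen1 were nearest to Vwf (0.323 to 0.359), and Cd36, Lyz2 and Gas6 to Pf4 (0.582 to 0.591). Gas6, a ligand of TAM receptors, had 84.0 and 171 CPM in Yy1-/- replicates 1 and 2 and 4.78 and 3.46 CPM in replicates 3 and 4.

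For Clec1b the nearest were 5031425F14Rik, Fcgr3 and Clec4b2 (0.777 to 0.868), and Fcgr3, an Fc receptor of myeloid cells, had 640 and 435 CPM in Yy1-/- replicates 1 and 2. Gp1bb was nearest to Pcbd1, Tnfsf10 and Alkbh7 (0.392 to 0.433), and Gp9 to Cbfa2t2, F2rl3 and Ccl27a (0.242 to 0.257), where F2rl3 encodes the thrombin receptor PAR4 of platelets. Selp was nearest to Cyp2u1, Commd9 and Ecm1 (0.334 to 0.421), Treml1 to Ifitm7, Ndnf and Metap1d (0.835 to 0.877) and Cavin2 to Aspa, Htr2a and Fhdc1 (1.27 to 1.31). Rap1b was nearest to Rnf103, Serp1 and Sdcbp (0.137 to 0.154). The members themselves were not among each other's 3 nearest genes. Nearness is easier to reach for genes of high level and small range, so it cannot be compared between members.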

How the data were processed

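RNA of sorted LSK cells was extracted (RNeasy Micro) and made into libraries with SMART-Seq v4, which does not mark strand, per the labels' protocols. Reads were processed with STAR 2.5.2b, RSEM 1.3.0 and build mm10, per the submitters' processing notes. Their settings are not given in the sources used here. The deposited tables hold RSEM expected counts (estimated reads per gene, unscaled), TPM (scaled by length to the same sum) and FPKM, which was not used, per the file headers. The deposited effective lengths served 1 alternative.

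Symbols and positions came from GENCODE M21 by identifier, which matched all but 93 genes. Expected counts were rounded, filtered with filterByExpr (minimum count 10, minimum total 15) and fitted with edgeR 4.0.16 in R 4.3.3, with TMM factors and 1 term per genotype over all 12 libraries. Pairs of genotypes were tested with the quasi-likelihood F test in its bias-adjusted form, with Benjamini-Hochberg adjustment over 16649 genes. A gene rose or fell when its adjusted p was under 0.05. Errors of fold changes are standard errors (SE) and intervals are at 95%. The test was tried on simulated data with known changes. The p-values measure the spread between these libraries, since nothing in the labels says they came from separate animals. No library repeated another of its own genotype, and pairs from different genotypes were not compared in this way. Floors are 3 counts per library and cover counting error only, because PCR reads are not independent molecules.

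The members and lists were chosen with earlier results of these data known. Named genes were drawn from the members, the checks of the labels, the genes overlapping a member, the 3 most like each member, up to 4 called genes with the smallest p in Yy1-/- and the 2 with the highest TPM in Yy1+/+ of each wider list, and the 3 highest of each marker list. Others (Gp1ba, Gp6, P2ry12 and Cdh5) were named after their values were seen, and 1 gene that the rule names is not reported here. Alternatives used DESeq2 1.42.0, limma 3.58.1 on log2(TPM + 1), other size factors and filters, length offsets, fewer genotypes and fewer libraries.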

Additional observations from a re-analysis of the deposited data

Results flagged for a closer look

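Of 42 groups of 4 libraries examined (the 10 genes, Yy1, Smc3, Kit and Ly6a in 3 genotypes), 3 held a library whose gap to its nearest neighbour took up more of the range than Dixon's 95% limit for 4 samples allows. Chance flags about 1 in 20 such groups. Rap1b was 473 CPM in Yy1+/+ replicate 2, above the 227 to 259 CPM of the other 3 Yy1+/+ libraries, and it is the library without which Rap1b was called higher in Yy1-/-. Yy1 was 4.45 CPM in replicate 3 of the libraries labelled Yy1-/- Smc3+/-, above 0.772 to 0.944 CPM in the other 3. Yy1 was also 41.3 CPM in Yy1+/+ replicate 2, above 33.9 to 34.2 CPM in the other 3.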

How the results depend on the processing

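Over 524 recomputed fold changes of the 10 genes, 469 kept their direction and side of the threshold, 15 lost a call, 9 gained one and 31 changed sign, none of them a called value. Mmrn1, Vwf and Treml1 kept their calls against Yy1+/+ under all alternatives. Leaving out single libraries gave 5 to 7 genes called in Yy1-/-, 5 or 6 in libraries labelled Yy1-/- Smc3+/- and 0 between them. Without the 3 mutant libraries with the most Yy1 reads (chosen after seeing the data), which leaves 2 Yy1-/- libraries, 1 of the 10 genes and 6 of the wider lists were called between the mutants. There Clec1b (-0.024) and Pf4 (0.10) changed sign in libraries labelled Yy1-/- Smc3+/- against Yy1+/+, as did Rap1b (-0.078), and Selp (-0.091) did in Yy1-/-. Without Yy1-/- replicates 1 and 2 (also chosen after), Pf4 (-1.86) and Rap1b (-0.074) did in Yy1-/-, and Pf4 (1.75) and Rap1b (0.041) did between the mutants. With log2 TPM, where the median of all genes was -0.177 in Yy1-/- and -0.111 in libraries labelled Yy1-/- Smc3+/-, Pf4 (-0.024) and Selp (-0.12) did in Yy1-/-, and Rap1b (-0.12) in libraries labelled Yy1-/- Smc3+/-. Rap1b in those libraries was also -0.0099 with DESeq2, -0.0103 with RLE factors, -0.0139 with a stricter filter, -0.024 with length offsets, -0.0198 with 2 genotypes only and -0.044 unfiltered. Leaving out single libraries gave both signs for Pf4 (-1.01 to 0.26) and Rap1b (-0.11 to 0.30) in libraries labelled Yy1-/- Smc3+/-, for Selp in Yy1-/- (-0.081 to 0.31) and for Treml1 between the mutants (-2.03 to 0.63). Over all tested genes, 6 were called between the mutants by edgeR, against 53 by DESeq2 and 311 without the 3 libraries with the most Yy1 reads. No paired analysis was possible because the labels give no replicate numbers that tie libraries of different genotypes. The low counts of Clec1b, Treml1 and Cavin2 limit the precision of their fold changes.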
